A study of Mus musculus with 24 samples.

Results

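Mouse cells labelled Erg were compared between day 7 and day 3 of culture. The comparison held the 6 libraries whose labels give Erg as the condition, 3 from day 3 and 3 from day 7, out of 24 libraries in the series, and it was read across all genes. The source tissue of every library was mouse heart, and all cells were kept in EGM2, an endothelial growth medium. Control libraries carry the cell type label fibroblast, whereas Erg, Sox17 and SEG libraries carry the label iEC, and each of the 4 conditions was sampled at both days in 3 libraries. The labels give no strain, age, vector, dose or promoter for any group, do not spell out SEG, and do not tie the 3 libraries of a group to distinct dishes or mice, so all p-values below measure only the spread between these libraries. The study compared the conditions to follow how far the cells took on endothelial identity, and the comparison made here asks how cells of the Erg condition changed between the 2 days.

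Erg is a transcription factor of the ETS family. In endothelial cells it binds enhancers and promoters of junction, receptor and angiogenesis genes and keeps them active, and it holds down inflammatory genes. Fibroblasts are the matrix-making cells of the heart, marked by collagens and by the PDGF receptors. Converting fibroblasts towards another identity is usually followed by the gain of genes of the new cell type and the loss of matrix genes, while division, sterol synthesis and innate immune programmes can change over the same days.

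Library totals in the 6 Erg libraries ran from 18830407 to 37355910 counts, within the series range of 18794422 to 44586227. Of 14804 genes tested, 4447 (30.0%) were called different between the days at an adjusted p under 0.05 (edgeR quasi-likelihood test, Benjamini-Hochberg adjustment over all genes tested, as for every adjusted p given here). The calls comprised 2316 genes that rose (15.6%) and 2131 that fell (14.4%). The median log2 change over all genes tested was 0.0049 and the median absolute change 0.32. Changes beyond 1.5-fold were called for 8.34% of genes, 815 rising (5.51%) and 419 falling (2.83%), so the larger changes were more often rises. Among called genes, 460 rose and 86 fell at least 4-fold. The 3 day 7 libraries lay entirely above or entirely below the 3 day 3 libraries for 57.8% of genes. The libraries labelled Sox17 day 7 replicate 1 and SEG day 7 replicate 1 stood apart from the others of their groups, with ribosomal protein genes taking 8.50% and 5.79% of their counts, against 4.18% to 5.26% in the Erg libraries. All groups share 1 estimate of the spread in the fit. In a fit on the other 22 libraries, 54.4% of genes were called between the Erg days, 4238 rising (28.2%) and 3924 falling (26.2%), so counts over whole lists are given from that fit too, beside those from the fit on all 24 libraries, which is the one meant where no fit is named. Counts of list members are to be read against 15.6% of genes rising and 14.4% falling in the fit on 24 libraries, and against 28.2% and 26.2% in the fit on 22. Among the Erg libraries, day 7 replicate 3 differed most from the others of its day, and it was kept in both fits. Its counts over genes differed from replicate 1 by a chi-square per degree of freedom of 16.3, and from replicate 2 by 30.7. Between replicates 1 and 2 the value was 7.62, and such values also grow with depth. Ribosomal protein genes took 5.26% of its counts, against 4.50% and 4.18%. Scaling mattered for the balance of directions. Rises made up 52.1% of called genes with TMM factors, 63.1% with upper quartile factors and 80.9% with library totals alone (29.9% of genes rising and 7.07% falling), which moved the median log2 change of all genes to 0.22. Differences near or under that shift are therefore read only against other genes.

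Erg itself (ENSMUSG00000040732, 16:95359169-95586593 on the minus strand, mm10) stood at 7039, 7088 and 7133 CPM (read counts scaled to a common library size) in the 3 day 3 libraries and at 5809, 5277 and 4327 CPM in the 3 day 7 libraries. All 3 day 7 values lay below the day 3 values. The log2 difference was -0.46 (SE 0.19) with an adjusted p of 0.070 in the fit on 24 libraries and of 0.00017 in the fit on 22. Control libraries held at most 2 Erg counts each, so the transcript separated the libraries as their labels do. The labels do not say how Erg was delivered, and reads from an introduced copy and from the gene on chromosome 16 cannot be told apart in these counts. Sox17 had 15 counts over the 3 Erg libraries of day 3 and 12 over those of day 7.

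Genes of sterol and fatty acid synthesis fell throughout. These genes are driven by the SREBP transcription factors, which are released from the endoplasmic reticulum when membrane cholesterol is low. All 32 members of the list fell, against 14.4% of all genes, and 30 of them fell beyond 1.5-fold. All 32 also fell in the fit on 22 libraries. Their median log2 change was -1.76, compared with -0.79 for the same genes in control cells. Summed over the list, the Erg libraries held 8242 to 8419 CPM on day 3 and 2512 to 2651 CPM on day 7.

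Among the cholesterol enzymes, Hmgcs1, the synthase at the head of the pathway, stood at 236, 231 and 243 CPM on day 3 and at 49.9, 64.9 and 55.8 CPM on day 7. It fell by 2.06 on the log2 scale (SE 0.13, adjusted p = 3.55e-10). Cyp51, the demethylase of lanosterol, went from 222, 217 and 217 CPM to 40.8, 52.9 and 49.2 CPM, and fell by 2.20. Day 3 libraries differed little from one another for either gene, and neither gene's days overlapped. Idi1, which interconverts the isoprene units, fell by 2.12. Lss, the cyclase that makes lanosterol, fell by 2.24, and all 18 cholesterol enzymes on the list were called lower.

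Fatty acid enzymes moved the same way, 8 of 8. Scd1, the desaturase that makes oleate, stood at 422, 406 and 409 CPM on day 3 and 77.2, 81.5 and 75.0 CPM on day 7, and fell by 2.40 (SE 0.17, adjusted p = 1.84e-09). Fasn, the fatty acid synthase, stood at 747, 797 and 728 CPM and then at 287, 291 and 251 CPM. Its fall was 1.45, smaller than that of Scd1, Elovl6 (2.29) or Fads2 (2.10). Scd1 and Scd2 are close paralogs, and how reads were shared between them is not given in the sources used here.

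Regulators and receptors of the pathway fell as well, 6 of 6. Insig1, which retains the SREBP complex in the endoplasmic reticulum, went from 445, 451 and 451 CPM to 90.2, 93.0 and 97.1 CPM, a fall of 2.26 (SE 0.09, adjusted p = 7.99e-13). The days lay far apart against the spread within each. Srebf2, the SREBP that drives cholesterol genes, fell by 1.12, and Srebf1, the SREBP of fatty acid genes, had the smallest fall of the list at 0.59.

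The falls were larger than in control cells for 28 of the 32 genes, where 10.4% of all genes had a lower change in Erg than in control cells. Hmgcs1 fell by 0.72 in control cells, 1.34 less than in Erg cells (adjusted p of the difference 1.2e-05). Insig1 fell by 0.81 there, 1.45 less than in Erg cells. The 4 genes with no called difference from control were Mvk, Pmvk, Fdps and Acly. In control cells alone, 30 of the 32 genes fell. Against Sox17 cells 24 of the 32 changes were lower in Erg cells (background 8.84%), and against SEG cells 12 were (background 9.15%). With both outlying libraries left out these counts were 30 and 22, where 20.8% and 22.5% of all genes were called lower.

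Stretches of 3 promoter regions are printed because they show the letters that the pathway's factors are known to bind. RefSeq promoter sequences (GRCm38.p6) were found for 21 of the 32 genes and searched over 250 bases before each RefSeq start on both strands. A gene was counted if the letters stood before any of its starts. Capitals mark the letters TCACNCCAC (a sterol response element form) in Hmgcs1 (chr13:119690189-119690247, plus strand) and CCAAT, read as ATTGG on the other strand, in Idi1 (chr13:8885536-8885605, plus strand) and Insig1 (chr5:28071171-28071225, plus strand). The Idi1 stretch lies before the RefSeq start but inside the gene as GENCODE draws it, from 13:8885501.
Hmgcs1: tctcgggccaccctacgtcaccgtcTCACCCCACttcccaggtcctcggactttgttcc
Idi1: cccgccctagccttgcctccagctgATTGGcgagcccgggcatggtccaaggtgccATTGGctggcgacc
Insig1: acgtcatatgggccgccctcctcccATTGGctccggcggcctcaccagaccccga
TCACNCCAC was found for 1 of the 21 genes, Hmgcs1, and for 1.25% of the 11166 tested genes with a promoter sequence. CCAAT was found for 16 of 21 genes (76.2%), against 39.9% of those tested genes. The share was alike, 41 of 55 genes (74.5%), for the replication and mitosis genes described below, so it is not particular to the sterol genes. A match is a run of letters, not a shown binding site, and these letters were chosen with the expression results known.

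**Figure D1:**
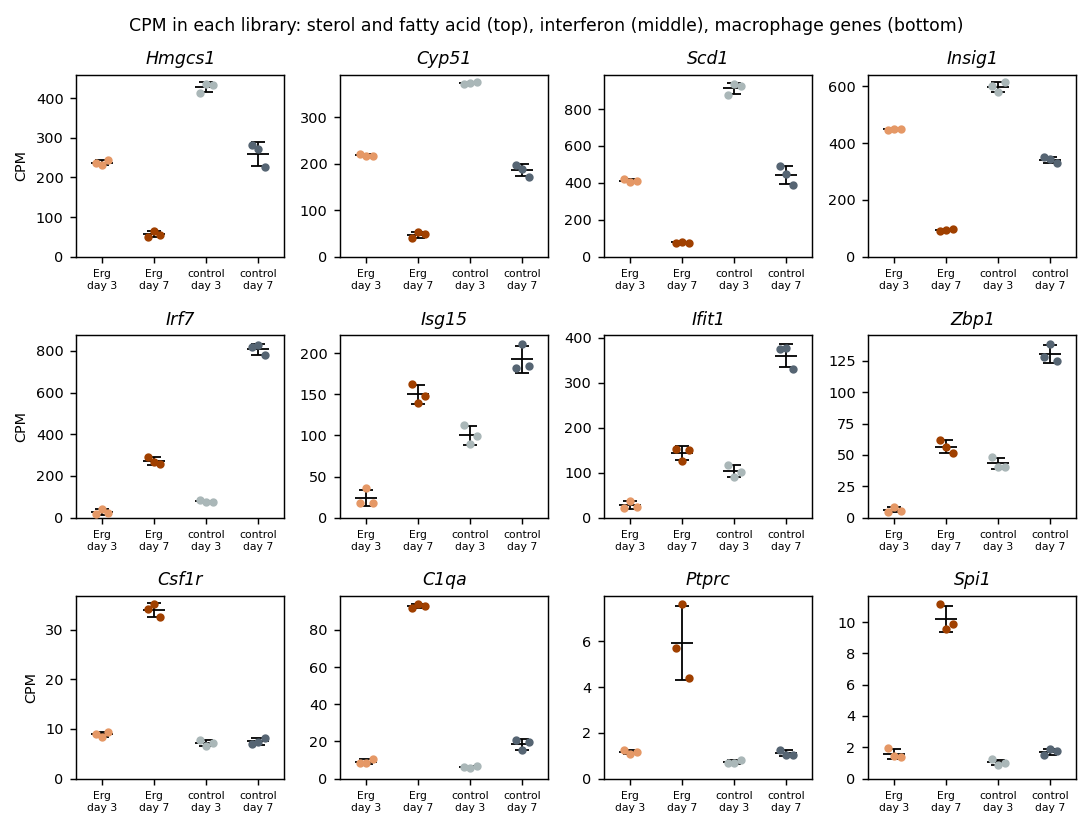
Normalised expression in CPM (linear axes) of 12 genes in each of the 3 control and 3 Erg libraries at day 3 and day 7, with points for libraries and bars for the mean ± SD. The top row shows sterol genes (Hmgcs1, Cyp51, Scd1, Insig1), which are lower on day 7 in Erg cells; the middle row interferon genes (Irf7, Isg15, Ifit1, Zbp1), which are higher on day 7; and the bottom row macrophage genes (Csf1r, C1qa, Ptprc, Spi1), where the Erg day 7 libraries stand above all others shown.

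Interferon response genes rose between the days. The list covers the sensors, transcription factors and effectors that cells make after type I or II interferon signalling. Of 33 genes tested, 31 rose (background 15.6%), and the other 2, Ifi27 and Cxcl10, had adjusted p-values of 0.052 and 0.11. The fit on 22 libraries called 32 higher. The median log2 change was 2.10, against 1.26 in control cells, and the day 7 libraries lay above the day 3 libraries for all 33 genes (28.9% of all genes). The summed level went from 942 to 1294 CPM on day 3 to 3633 to 4047 CPM on day 7.

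Irf7, the transcription factor that amplifies type I interferon production, stood at 18.9, 43.7 and 20.4 CPM on day 3 and at 292, 266 and 256 CPM on day 7. It rose by 3.30 (SE 0.37, adjusted p = 1.07e-06). Day 3 replicate 2 was the highest of the day 3 libraries for Irf7, and likewise for most interferon genes given here. Irf1, a factor shared with type II interferon signalling, rose by 0.35, the smallest rise of the list.

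Effectors rose in 23 of 24 cases. Isg15, a ubiquitin-like modifier, went from 18.0, 35.7 and 18.2 CPM to 162, 140 and 148 CPM (log2 change 2.65, SE 0.37, adjusted p = 1.47e-05). Zbp1, a sensor of Z-form nucleic acid, went from 4.57, 8.54 and 5.6 CPM to 61.8, 56.3 and 51.8 CPM. The separation between days exceeded the spread within either day for both genes. Oas2, which makes the second messenger that activates RNase L, rose by 3.28. Mx2, which GENCODE marks as a polymorphic pseudogene in mm10, rose by 3.01. Ifit and Oas genes form families of close copies, so the split of reads among their members is uncertain.

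In control cells, 28 of the 33 genes rose and 1 fell. Irf7 rose by 3.37 there, and its difference from Erg cells was -0.07 (adjusted p = 0.954). The rise was larger in Erg than in control cells for 9 of 33 genes (background 9.34%), among them Isg15 by 1.70 (adjusted p = 0.0178) and Zbp1 by 1.59, and smaller for 2, Irf1 and Ccl5. In the fit on 22 libraries 18 rises were larger (background 21.9%) and 2 smaller. Against SEG cells no rise was called larger (background 8.38%) and 1, that of Irf1, was called smaller, or 1 and 3 in the fit on 22 libraries. Against Sox17 cells 11 rises were larger (background 7.36%) and 1 smaller, or 24 (background 20.4%) and 1 in the fit on 22 libraries.

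Upstream regions of 4 interferon genes are printed to show the repeats for which interferon genes are known. Capitals mark the core of the interferon-stimulated response element, GAAA followed by any 2 bases and GAAA again, or its reverse complement (TTTC, any 2 bases, TTTC), and adjoining matches are capitalised as 1 run. The regions are Isg15 (chr4:156200850-156200921, minus strand), Ifit1 (chr19:34640760-34640838, plus strand), Ifit3 (chr19:34583348-34583441, plus strand) and Rsad2 (chr12:26456538-26456597, minus strand), each written in the direction of its gene.
Isg15: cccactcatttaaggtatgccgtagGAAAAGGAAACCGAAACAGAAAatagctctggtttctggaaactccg
Ifit1: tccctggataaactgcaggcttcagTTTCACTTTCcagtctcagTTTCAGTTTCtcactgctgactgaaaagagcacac
Ifit3: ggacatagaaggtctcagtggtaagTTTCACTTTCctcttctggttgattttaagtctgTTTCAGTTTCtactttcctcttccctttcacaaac
Rsad2: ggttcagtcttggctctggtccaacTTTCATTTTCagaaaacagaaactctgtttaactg
Counted by gene as above, the letters were found for 13 of 23 matched interferon genes (56.5%) and for 3.31% of the 11166 tested genes with a promoter sequence. Ifit1 rose by 2.38, Ifit3 by 2.31 and Rsad2 by 2.40 between the days.

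Macrophage marker genes rose between the days in Erg cells. Macrophages are resident phagocytes of the heart, and their markers were listed as those of another cell type that heart cultures can hold. Of 32 genes tested, 28 rose (background 15.6%) and 1 fell, Spp1, whose call was lost without Erg day 7 replicate 1. Trem2, Tlr2 and Coro1a were not called. The fit on 22 libraries gave 30 rises and 2 falls. The median log2 change was 2.28, against 0.85 in control cells. Summed over the list, the level went from 365 to 388 CPM on day 3 to 1237 to 1312 CPM on day 7 in Erg cells, and from 268 to 277 CPM to 383 to 448 CPM in control cells.

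Csf1r, the receptor on which macrophages depend for survival, stood at 8.98, 8.45 and 9.40 CPM on day 3 and at 34.0, 35.2 and 32.4 CPM on day 7. It rose by 1.92 (SE 0.16, adjusted p = 2.9e-08), and its change exceeded that of control cells by 1.86 (adjusted p = 7.44e-06). Ptprc, which encodes the pan-leukocyte antigen CD45, went from 1.24, 1.07 and 1.18 CPM to 5.73, 7.63 and 4.42 CPM. The 2 days did not overlap for either gene. Adgre1, which encodes F4/80, rose by 2.32, and the mannose receptor Mrc1 by 2.35.

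C1qa, a chain of the complement starter C1q, went from 8.19, 8.25 and 10.6 CPM to 91.8, 93.7 and 92.9 CPM, and rose by 3.36 (SE 0.29, adjusted p = 3.96e-08). C1qb and C1qc, the other chains, rose by 3.05 and 3.21. Spi1, which encodes the myeloid master factor PU.1 of the ETS family, went from 1.92, 1.42 and 1.36 CPM to 11.1, 9.59 and 9.90 CPM. Lyz2, the macrophage lysozyme, stood at 129, 119 and 126 CPM and then at 363, 376 and 365 CPM. Receptors, secreted and lysosomal products, and signalling genes thus rose in parallel, in 14 of 16, 8 of 9 and 6 of 7 cases.

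The change exceeded that of control cells for 21 of 32 macrophage genes (background 9.34%) and fell short of it for 2, Tlr2 and Spp1. It exceeded that of Sox17 cells for 21 (background 7.36%) and that of SEG cells for 14 (background 8.38%). Without both outlying libraries these counts were 22, 24 and 19, against backgrounds of 21.9%, 20.4% and 20.8%. In control cells alone, 17 macrophage genes rose and none fell. Summed day 7 levels were 347 to 435 CPM in SEG and 246 to 357 CPM in Sox17 cells. In RNA from whole cultures, fewer cells of a type and less RNA per cell cannot be told apart, nor can more cells and more RNA per cell. Markers of other blood and heart cells were low and did not all stand still. Over the 3 libraries of each day, the T cell gene Cd3e had 0 and 0 counts, the B cell gene Cd79b 13 and 12, and the haemoglobin gene Hbb-bs 5 and 19. The cardiomyocyte genes Myh6 and Tnni3 had 4 and 21, and 13 and 20 counts. The summed level of the erythroid and platelet list went from 4.30 to 5.08 CPM on day 3 to 9.44 to 12.3 CPM on day 7, without overlap. That of the cardiomyocyte list was 12.2 to 13.6 CPM and then 11.7 to 15.5 CPM, that of the granulocyte and mast cell list 2.68 to 3.90 CPM and then 3.42 to 4.08 CPM, and that of the lymphocyte list 0.678 to 1.66 CPM and then 0.734 to 1.80 CPM, all overlapping. Of 2 lymphocyte, 6 granulocyte and mast cell, 3 erythroid and platelet and 5 cardiomyocyte genes that passed the filter on low counts, 3 rose. They were Pf4 and Itga2b, platelet genes also made by some macrophages and precursors, and Csf3r, whose call was lost without any 1 of the 6 libraries. The fit on 22 libraries called 2 granulocyte and mast cell, 2 erythroid and platelet and 2 cardiomyocyte genes higher (28.2% of all genes) and none lower. The 5 cardiomyocyte genes had a median log2 change of 1.09, against 1.29 in control cells, with no call in the fit on 24 libraries. The part of macrophage RNA in the rise of interferon and complement genes was not tested.

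Genes of DNA replication and mitosis, which mark dividing cells, declined far less in Erg cells than in control cells. Of 67 genes tested in Erg cells, 2 rose and 14 fell (backgrounds 15.6% and 14.4%), and 51 had no call. In control cells 67 of 67 fell. The median log2 change was -0.14 in Erg cells and -1.92 in control cells. The change differed from that of control cells for 66 genes, all in the direction of a smaller decline in Erg cells (background 9.34%). The exception was Cdk2, whose difference of 0.31 had an adjusted p of 0.081. Summed over the list, Erg libraries held 1397 to 1461 CPM on day 3 and 1252 to 1275 CPM on day 7, and control libraries went from 2880 to 2948 CPM down to 813 to 973 CPM. Sox17 libraries went from 2699 to 2762 CPM down to 1954 to 2144 CPM, and SEG libraries from 2220 to 2295 CPM down to 1140 to 1194 CPM. Against SEG cells 47 changes were higher in Erg cells (background 8.38%), but against Sox17 cells only 15 were (background 7.36%), and none was lower. In the fit on 22 libraries 61 and 26 were higher (backgrounds 20.8% and 20.4%), and 1 was lower against Sox17 cells. In the fit on 22 libraries 3 genes rose and 25 fell, and with library totals as the only scaling, where 29.9% of all genes rose and 7.07% fell, 6 rose and 4 fell.

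Mki67, a marker of cycling cells, stood at 18.9, 25.2 and 28.0 CPM on day 3 and at 18.2, 22.9 and 14.5 CPM on day 7, and the days overlapped. Its log2 difference was -0.38 (adjusted p = 0.131), and it was called lower without Erg day 7 replicate 2, at -0.56. In control cells Mki67 went from a mean of 78.8 to 15 CPM, a fall of 2.39. The difference between the conditions was 2.01 (adjusted p = 1.4e-05). Erg means for Mki67, 24 CPM on day 3 and 18.5 CPM on day 7, were thus below the control mean on day 3 and above it on day 7. Top2a, the topoisomerase that untangles replicated DNA, went from 41.1, 45.3 and 45 CPM to 50.8, 50.4 and 42.0 CPM, with overlapping libraries. Ccnb1, the mitotic cyclin, went from 24.6, 23.2 and 23.7 CPM to 21.7, 21.0 and 20.9 CPM (log2 difference -0.17, adjusted p = 0.323).

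Most genes that fell act at the start of S phase or in DNA synthesis. Licensing and origin firing genes fell in 5 of 13 cases, replication fork and nucleotide genes in 5 of 14, and transcription factors in 3 of 6. Of those factors E2f7 kept its call without each Erg library in turn, while Mybl2 lost it without any of 5 libraries (all but Erg day 7 replicate 3) and Foxm1 without Erg day 3 replicate 2 or 3 or Erg day 7 replicate 3. Cyclins, kinases and regulators fell in 1 of 16, Cdk2, and spindle, kinetochore and cytokinesis genes in 0 of 18. Whether these shares differ was not tested. Cdt1, which loads the replicative helicase, stood at 18.2, 20.6 and 19 CPM and then at 12.9, 10.1 and 13 CPM, a fall of 0.68 (SE 0.15, adjusted p = 0.00172). Uhrf1, which keeps DNA methylation through replication, fell by 0.63, and Rrm2, the small subunit of ribonucleotide reductase, by 0.30, or 0.088 with no call under library totals. Rfc3, of the clamp loader, rose by 0.75. The other riser, Ndc80, was called only with Erg day 3 replicate 2 and Erg day 7 replicate 3 both present.

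**Figure D2:**
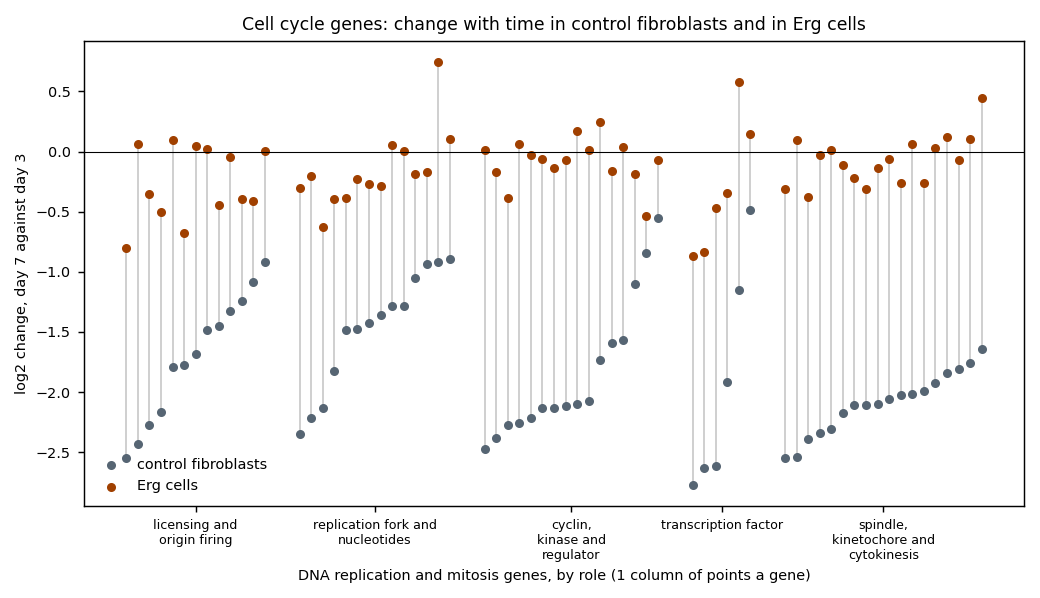
Log2 change from day 3 to day 7 of 67 genes of DNA replication and mitosis, grouped by role, with 1 point for control cells and 1 for Erg cells joined by a line for each gene. Control points lie between -2.78 and -0.48, and Erg points lie between -0.87 and 0.75.

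Inhibitors of cyclin-dependent kinases, D cyclins and p53 targets gave 6 rises and 3 falls among 25 genes (backgrounds 15.6% and 14.4%). The fit on 22 libraries gave 11 and 6 (28.2% and 26.2%). Cdkn2a, the locus of p16 and p19Arf, went from 24.5, 24.8 and 20.3 CPM to 38.9, 41.5 and 49.9 CPM, and rose by 0.91 (adjusted p = 0.00948). It rose by 1.02 in control cells. Mdm2, the ubiquitin ligase of p53, rose by 0.74 and Cdkn1c by 0.68. The 3 falls were those of Gdf15, a p53 target, the kinase gene Cdk6 and the D cyclin gene Ccnd1. Their log2 changes in the fit on 22 libraries were -0.98, -0.62 and -0.27. The p53 targets thus did not all rise, and Ccnd1 had no call under library totals, at -0.079. Cdkn1a, which encodes p21, had 639, 625 and 610 CPM on day 3 and 669, 591 and 658 CPM on day 7, with overlapping libraries, and was called higher by 0.25 only under library totals.

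Core endothelial genes changed in both directions. Of 36 genes, 8 rose and 11 fell (backgrounds 15.6% and 14.4%), with a median log2 change of -0.32 against 0.48 in control cells. The falls dropped to 8 without Erg day 7 replicate 3. With 22 libraries 9 rose and 17 fell (backgrounds 28.2% and 26.2%). The summed level was 4792 to 4918 CPM on day 3 and 4533 to 4821 CPM on day 7. Summed values are dominated by the most abundant transcripts and say nothing about single genes.

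Cdh5 (8:104101625-104144511, plus strand), which encodes the endothelial junction protein VE-cadherin, stood at 9.83, 12.8 and 10.6 CPM on day 3 and at 4.76, 3.86 and 3.87 CPM on day 7. It fell by 1.41 (SE 0.27, adjusted p = 0.00039). Control means were 0.519 CPM on day 3 and 0.152 CPM on day 7, so Cdh5 stayed above control at both days. Pecam1, the adhesion molecule CD31, had 2.65, 2.59 and 2.48 CPM and then 2.03, 1.76 and 2.41 CPM, with an adjusted p of 0.231. No other junction gene of the list was called.

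Among the receptors, Flt1, a VEGF receptor that limits signalling, stood at 207, 204 and 199 CPM on day 3 and at 84.8, 95.4 and 73.2 CPM on day 7. It fell by 1.27 (SE 0.23, adjusted p = 0.000221) whereas it rose by 1.16 in control cells, where its mean went from 11.5 to 25.6 CPM. The difference between conditions was -2.43 (adjusted p = 1.95e-05). Flt4, the receptor of VEGF-C, went from 372, 384 and 375 CPM to 213, 202 and 155 CPM and fell by 0.99. Kdr, the main signalling receptor of VEGF-A, had 65.8, 64.6 and 66.1 CPM and then 49.2, 48.0 and 40.5 CPM, with no overlap of the days. Its log2 difference of -0.51 had an adjusted p of 0.164 in the fit on 24 libraries and of 8.24e-05 in the fit on 22.

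Angpt2, the ligand that destabilises vessels through the Tie2 receptor, was the largest rise of the list. It went from 3.39, 3.47 and 3.66 CPM to 25.8, 20.2 and 19.5 CPM, and rose by 2.63 (SE 0.18, adjusted p = 1.12e-09), 0.93 more than in control cells. Clec14a, an endothelial lectin, went from 5.70, 5.71 and 6.52 CPM to 17.5, 13.9 and 14.6 CPM. Cd34, a mucin also found on progenitors and fibroblasts, stood at 13.6, 13.9 and 14.6 CPM and then at 26.4, 24.9 and 26.2 CPM. Both genes rose less than in control cells, by 2.07 and 1.46. Sele, which encodes E-selectin, fell by 1.5, the largest fall of the list.

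Relative to control cells the change in Erg cells was lower for 17 core endothelial genes and higher for 2 (backgrounds 10.4% and 9.34%). Against SEG cells 14 were lower and 2 higher (backgrounds 9.15% and 8.38%), and against Sox17 cells 11 and 2 (8.84% and 7.36%). These pairs were 19 and 6, 22 and 6, and 14 and 5 of 36 genes in the fit on 22 libraries. The backgrounds there were 22% and 21.9%, 22.5% and 20.8%, and 20.8% and 20.4%, so the numbers with a higher change were below them.

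**Figure D3:**
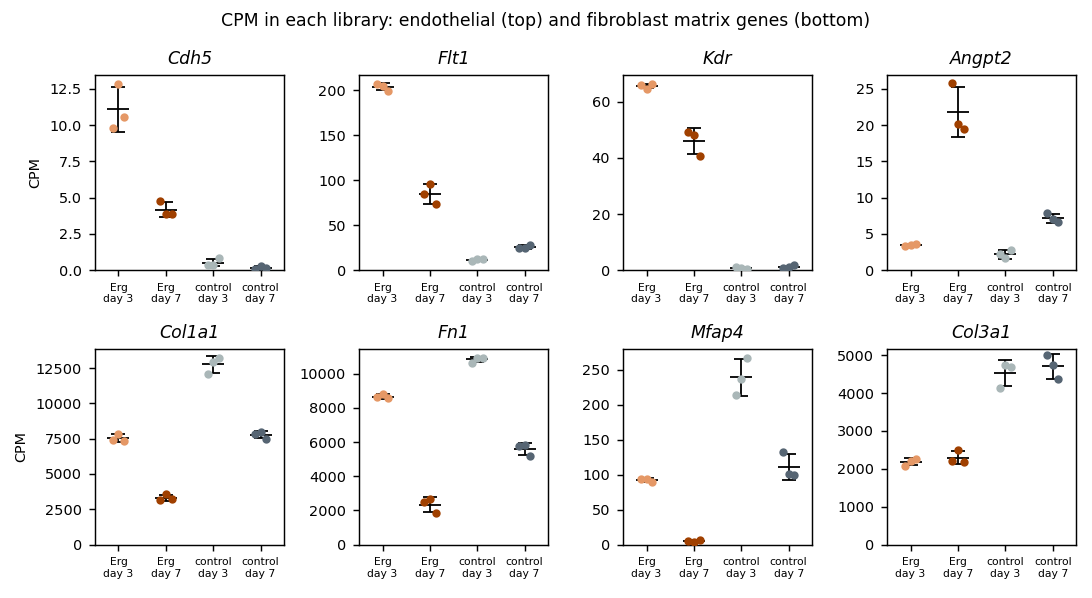
Normalised expression in CPM (linear axes) of 4 endothelial genes (Cdh5, Flt1, Kdr, Angpt2) and 4 matrix genes (Col1a1, Fn1, Mfap4, Col3a1) in control and Erg libraries at day 3 and day 7, with points for libraries and bars for the mean ± SD. Cdh5, Flt1, Col1a1, Fn1 and Mfap4 are lower on day 7 in Erg cells, Angpt2 is higher, and Col3a1 overlaps between the days.

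Transcription factors of endothelial cells gave 5 rises and 6 falls among 21 genes (backgrounds 15.6% and 14.4%), or 3 rises without Erg day 3 replicate 2. The fit on 22 libraries gave 7 rises and 9 falls (28.2% and 26.2%). Gata2, a zinc finger factor of endothelial and blood precursors, stood at 40.3, 42.6 and 38.7 CPM on day 3 and at 18.9, 20.3 and 18.4 CPM on day 7, and fell by 1.07 (adjusted p = 2.07e-07). Klf4, a factor induced by flow, fell by 0.99. Lmo2, which bridges Gata and Tal1 complexes, rose from 4.29, 5.27 and 4.82 CPM to 12.2, 14.1 and 11.2 CPM, and Lyl1 rose by 2.40 from below 1 CPM. Both are made in blood cells as well. Sox18, a partner of Sox17 in vessels, had 29.4, 29.0 and 26.1 CPM and then 26.0, 24 and 25.4 CPM, with an adjusted p of 0.678. Etv2, the early endothelial ETS factor, had 0 counts in all 6 libraries.

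Notch is the receptor pathway that sets arterial fate, with Dll and Jag ligands and Hey, Hes and Nrarp targets. No Notch target rose, and 3 of 5 fell. Heyl went from 59.2, 54.1 and 51.7 CPM to 18.1, 18.5 and 20.2 CPM, and fell by 1.54 (SE 0.12, adjusted p = 7.44e-09). Nrarp, the feedback inhibitor, fell by 1.34. Hey1 is the third, and its call was lost without Erg day 3 replicate 1 (log2 change -0.40) and without Erg day 7 replicate 3 (-0.55). The arterial and Notch list as a whole gave 4 rises and 5 falls among 23 genes (backgrounds 15.6% and 14.4%). The falls dropped to 2 without Erg day 7 replicate 3. The fit on 22 libraries gave 5 rises and 9 falls, against 28.2% and 26.2% of all genes. Without Erg day 7 replicate 3 the ligand Dll4 (-1.35) and the gap junction gene Gja1 (-0.69) lost their calls as well. Jag2, a ligand, had 126, 128 and 125 CPM and then 101, 96.2 and 88.3 CPM, with no overlap of the days and a log2 difference of -0.41 (adjusted p = 0.182). It was called lower in the fit on 22 libraries, by -0.39 (adjusted p = 0.00438). The same gene rose by 3.69 in Sox17 and by 3.73 in SEG cells. The differences from Erg cells, -4.10 and -4.14, had adjusted p-values of 2.45e-07 and 1.94e-07, and were -4.07 and -4.20 in the fit on 22 libraries.

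Of 13 venous, lymphatic and tip cell genes, 5 rose and 4 fell (backgrounds 15.6% and 14.4%). The fit on 22 libraries gave 5 and 5 (28.2% and 26.2%). The summed level of the list fell, from 1974 to 2051 CPM on day 3 to 1154 to 1247 CPM on day 7, without overlap. Tip cell genes gave 4 rises and 1 fall among 6, and lymphatic genes 1 and 1 among 4. Apln, the peptide secreted by sprouting tip cells, stood at 730, 744 and 691 CPM on day 3 and at 298, 261 and 271 CPM on day 7, and fell by 1.38 (adjusted p = 1.02e-06). Control means for Apln were 7.03 and 7.40 CPM. Esm1, another tip cell product, rose by 1.46. Igfbp3, a binding protein of insulin-like growth factors found in tip and arterial cells, went from 27.7, 23.6 and 25.9 CPM to 130, 129 and 133 CPM, a rise of 2.34. Pdpn, a lymphatic and fibroblast glycoprotein, fell by 1.04. Reln, a secreted glycoprotein of lymphatic vessels, went from 16.9, 17.6 and 16.2 CPM to 76.8, 87.1 and 50.6 CPM. Lyve1, the hyaluronan receptor of lymphatic cells and some macrophages, had 144, 134 and 148 CPM and then 134, 120 and 108 CPM, with an adjusted p of 0.476 in the fit on 24 libraries and of 0.0309, at -0.22, in the fit on 22.

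Fibroblast matrix genes fell in Erg cells. Of 21 matrix genes, 17 fell (background 14.4%) and 2, Dpt and Gsn, rose, and the median log2 change was -1.02. The median in control cells was -0.43, and the change was lower in Erg than in control cells for 10 of the 21 (background 10.4%) and higher for none. The whole fibroblast list of 42 genes gave 22 falls and 7 rises (backgrounds 14.4% and 15.6%). In the fit on 22 libraries the list gave 29 and 7 (26.2% and 28.2%). Its summed level went from 57751 to 59015 CPM on day 3 to 33371 to 34336 CPM on day 7. In control cells 16 of the 42 genes fell and 10 rose, and the summed level went from 74793 to 79618 CPM to 62543 to 66787 CPM.

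Col1a1, the main chain of type I collagen, stood at 7375, 7860 and 7349 CPM on day 3 and at 3175, 3556 and 3210 CPM on day 7. It fell by 1.18 (SE 0.11, adjusted p = 1.25e-07), 0.47 more than in control cells (adjusted p = 0.0397). Fn1, fibronectin, went from 8615, 8830 and 8557 CPM to 2475, 2684 and 1830 CPM, and its fall of 1.90 differed from that of control cells by -0.94 (adjusted p = 0.108). Mfap4 (11:61485431-61488900, plus strand), a protein of elastic fibres, went from 94.3, 93.7 and 89.4 CPM to 4.99, 4.26 and 6 CPM. This was the largest fall among the genes named by rank, 4.17 (SE 0.16, adjusted p = 6.39e-13), and it was 3.06 larger than in control cells. Col3a1, the chain of type III collagen, had 2080, 2207 and 2271 CPM and then 2215, 2508 and 2171 CPM, so not all fibrillar collagens moved alike.

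Dcn, the proteoglycan decorin, fell by 0.82 in Erg cells and rose by 0.89 in control cells, a difference of -1.71 (adjusted p = 2.29e-07). Gsn, the actin-severing gelsolin, stood at 2180, 2106 and 2061 CPM on day 3 and at 4113, 3459 and 4356 CPM on day 7, and rose by 0.91, which was 1.73 less than in control cells. Dpt, dermatopontin, went from 30.2, 27.7 and 28.2 CPM to 141, 145 and 172 CPM. Fbln2 (fibulin 2) and Col4a1 (a chain of basement membrane collagen), which are not on the list and were named for their large falls in CPM, fell by 1.76 and 1.09.

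Surface receptors and transcription factors of fibroblasts moved less uniformly. Pdgfrb stood at 720, 721 and 711 CPM and then at 337, 333 and 313 CPM, and fell by 1.13. Pdgfra, the other PDGF receptor, had 185, 198 and 201 CPM and then 205, 239 and 187 CPM, with overlapping days. Among 13 transcription factors 4 rose and 1 fell. Wt1, an epicardial factor, went from 1.24, 1.27 and 1.07 CPM to 6.93, 8.36 and 8.50 CPM, 3.08 above the change in control cells. Of 7 epithelial and mesothelial markers tested 3 rose (background 15.6%), among them Msln by 1.98. Krt7, another of the 3, lost its call without Erg day 3 replicate 1 or 3 or Erg day 7 replicate 3. Summed over the list, the level went from 6.95 to 9.38 CPM on day 3 to 15.1 to 18.0 CPM on day 7. In control cells its median was 12.4 CPM on day 3, above the Erg range. On day 7 control libraries held 14.3 to 19.5 CPM, overlapping the Erg range. No change was called different from that of control or SEG cells, and 1 was higher than in Sox17 cells. In the fit on 22 libraries 3 rose (28.2%), and 1 and 2 changes were higher than in control and Sox17 cells. Krt8 and Krt18, too low to test, went from 2 and 4 counts over the day 3 libraries to 32 and 15 over the day 7 libraries. Their part in the Wt1 result was not tested.

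Smooth muscle genes gave 6 rises and 2 falls among 18 (backgrounds 15.6% and 14.4%), or 6 and 3 in the fit on 22 libraries. The summed level of the list went the other way, from 1652 to 1708 CPM on day 3 to 1360 to 1536 CPM on day 7, without overlap. Acta2, the smooth muscle actin of activated fibroblasts, stood at 134, 146 and 139 CPM on day 3 and at 202, 253 and 245 CPM on day 7, and rose by 0.74 (SE 0.18, adjusted p = 0.00327). In control cells the mean dropped from 282 to 64.8 CPM, and the difference between conditions was 2.87 (adjusted p = 1.36e-07). Myl9, a myosin light chain, went from 8.02, 8.4 and 8.19 CPM to 24, 27.4 and 24.5 CPM, also against a fall in control cells. Lmod1 and Mylk rose by 1.69 and 1.67. The change was higher in Erg than in control cells for 8 genes and lower for 2 (backgrounds 9.34% and 10.4%). Against Sox17 cells 1 was higher and 1 lower (7.36% and 8.84%), and against SEG cells 2 and 2 (8.38% and 9.15%). The fit on 22 libraries gave 10 and 3, 3 and 2, and 4 and 7. Backgrounds there were 21.9% and 22%, 20.4% and 20.8%, and 20.8% and 22.5%. In that fit Acta2 had no called difference from Sox17 (0.40, adjusted p = 0.0809) or SEG cells (0.18, adjusted p = 0.453). Myl9 rose more than in both, by 1.49 and 1.46. Tagln, counted among the falls, lost its call without any 1 of the 6 libraries, and with library totals as the only scaling no gene of the list fell.

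**Figure D4:**
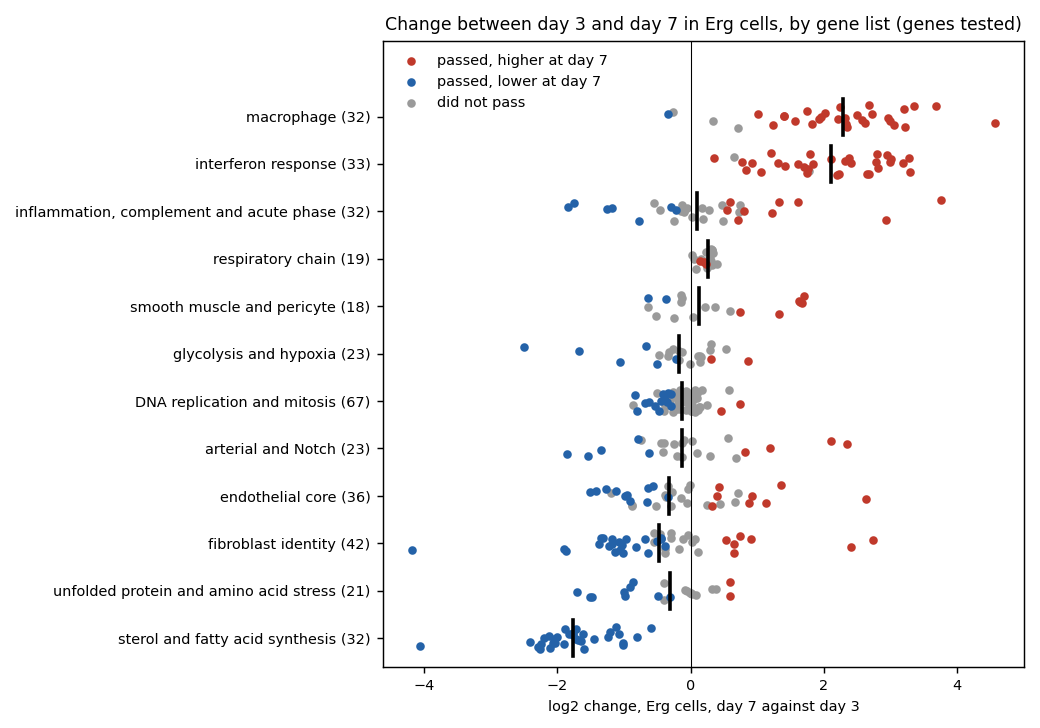
Log2 change from day 3 to day 7 in Erg cells for every tested gene of 12 gene lists, with 1 point per gene, red for genes called higher, blue for genes called lower and grey for genes with no call, and a black bar at each median. Sterol genes lie wholly below 0 (median -1.76), interferon (median 2.10) and macrophage genes (median 2.28) lie almost wholly above, and replication and mitosis genes sit around their median of -0.14.

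Inflammation, complement and acute phase genes gave 9 rises and 7 falls among 32 genes (backgrounds 15.6% and 14.4%). The fit on 22 libraries gave 13 and 9 (28.2% and 26.2%). Their median log2 change was 0.10 against 1.42 in control cells. C3, the central complement protein, stood at 269, 278 and 318 CPM on day 3 and at 296, 307 and 278 CPM on day 7 (log2 difference 0.03, adjusted p = 0.913). Its control mean went from 289 to 2438 CPM, and the difference between conditions was -3.05 (adjusted p = 3.1e-09). The 2 conditions thus had alike means on day 3 and differed on day 7. C4b, which acts upstream of C3, rose from 42.5, 42.9 and 45.4 CPM to 133, 133 and 134 CPM, 1.82 less than in control cells. Cfb, of the alternative pathway, rose by 2.93, 1.77 less than in control cells. All 9 complement genes tested had a lower change in Erg than in control cells (background 10.4%). Against Sox17 cells none was called higher or lower (backgrounds 7.36% and 8.84%). Against SEG cells 1 was higher and 2 were lower (8.38% and 9.15%). In the fit on 22 libraries calls against Sox17 cells included C4b (0.55) and Cfb (1.60), both higher, and C3 (-0.44), lower.

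Lcn2, the acute phase protein that binds bacterial siderophores, went from 104, 97.4 and 101 CPM to 45.4, 38.6 and 48.8 CPM. It fell by 1.19 in Erg cells and rose by 2.11 in control cells. Cxcl12, a chemokine that holds blood precursors in place, fell by 0.77 and rose by 0.73 in control cells. Il33, an alarmin stored in the nucleus, was an exception, going from 0.734, 1.22 and 1.12 CPM to 15, 13.1 and 14.5 CPM, 0.94 more than in control cells. Ccl2 had 139, 132 and 120 CPM and then 119, 126 and 121 CPM, with overlapping days. Of the whole list, 20 genes had a lower and 3 a higher change than in control cells (backgrounds 10.4% and 9.34%). With 22 libraries 24 were lower and 4 higher, against 22% and 21.9% of all genes. Against Sox17 cells 6 were lower and 2 higher (8.84% and 7.36%), and against SEG cells 5 and 4 (9.15% and 8.38%). With 22 libraries these pairs were 9 and 6 (20.8% and 20.4%), and 10 and 10 (22.5% and 20.8%).

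Growth factor and matrix signalling genes were split. Igfbp5, a binding protein of insulin-like growth factors, stood at 77.8, 72.0 and 71.0 CPM on day 3 and at 9.19, 5.18 and 6.4 CPM on day 7, and fell by 3.41 (SE 0.31, adjusted p = 8.01e-08). It rose by 1.58 in control cells. Vegfa fell by 0.70 and Vegfd rose by 1.09, so the VEGF ligands did not move as one. Ccn2, a target of TGF-beta and of YAP, went from 1168, 1258 and 1193 CPM to 1957, 2066 and 2069 CPM, a rise of 0.75 where control cells fell by 0.68. Growth factor genes gave 11 rises and 8 falls among 34 (backgrounds 15.6% and 14.4%). TGF-beta and matrix remodelling genes gave 7 and 6 among 25, and BMP, Id and Wnt genes 6 and 3 among 27. In the fit on 22 libraries these pairs were 11 and 10, 11 and 8, and 9 and 6 (backgrounds 28.2% and 26.2%).

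Of 14 immediate early genes, the transcription factors that respond first to growth signals, 4 rose and 3 fell (backgrounds 15.6% and 14.4%). The fit on 22 libraries gave 4 and 4 (28.2% and 26.2%). Jun stood at 56.1, 58.9 and 54.1 CPM on day 3 and at 115, 118 and 115 CPM on day 7, and rose by 1.05 (adjusted p = 8.59e-07). Lysosome and lipid handling genes gave 4 rises and 9 falls among 22 (15.6% and 14.4%). These pairs were 6 and 13 in the fit on 22 libraries (28.2% and 26.2%), and 8 and 3 under library totals (29.9% and 7.07%). Apoe, the lipid carrier of macrophages and other cells, went from 255, 250 and 245 CPM to 622, 594 and 644 CPM. Its rise of 1.31 was smaller than that of control cells by 1.22, and the part of the macrophage list in it was not tested.

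Amino acid stress genes controlled by Atf4 fell in 8 of 13 cases and rose in 2 (backgrounds 14.4% and 15.6%). Slc7a5, which imports leucine, stood at 326, 323 and 315 CPM on day 3 and at 115, 110 and 112 CPM on day 7, and fell by 1.51 (adjusted p = 3.48e-11). Slc7a11, the cystine importer, fell by 1.71 and Trib3 by 1.47. Chaperones of the endoplasmic reticulum had no call in 7 of 8 cases, with a median of -0.0040. The 2 sets together gave 2 rises and 9 falls among 21 genes, or 5 and 11 in the fit on 22 libraries (28.2% and 26.2%). Of 23 glycolysis and hypoxia genes 6 fell and 2 rose (14.4% and 15.6%), or 12 and 6 in the fit on 22 libraries (26.2% and 28.2%). Hk2, an inducible hexokinase, fell by 1.07, and Slc16a3, the lactate exporter, by 1.68, close to its fall of 1.60 in control cells. Adm, the vasoactive peptide adrenomedullin, rose from 190, 198 and 204 CPM to 367, 352 and 356 CPM. Respiratory chain genes gave 3 small rises among 19 (15.6%), the largest called one 0.22. The count was 0 to 3 with 1 library left out, and 0 without Erg day 7 replicate 3. It was 10 under library totals (29.9% of all genes rising) and 16 in the fit on 22 libraries (28.2%). The change was higher than in control, Sox17 and SEG cells for 4, 2 and 2 genes (9.34%, 7.36% and 8.38%). In the fit on 22 libraries these counts were 18, 17 and 18 (21.9%, 20.4% and 20.8%), and no gene was lower.

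The largest rise among genes of at least 10 CPM was that of Fcna (2:25624666-25628030, minus strand), a lectin of the complement system made by macrophages. It went from 0.904, 0.683 and 1.12 CPM to 35.2, 33.1 and 41.0 CPM, and rose by 5.29 (SE 0.38, adjusted p = 3.44e-09). The change exceeded that of control cells by 4.13, that of Sox17 cells by 3.46 (4.09 in the fit on 22 libraries) and that of SEG cells by 2.79 (3.17). Siglec1, a macrophage lectin, rose by 3.69, and F13a1, the coagulation factor XIII subunit found in macrophages and platelets, by 3.48. These genes rose together with the macrophage list above, and its part in their rise was not tested.

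Other leading rises were of genes with other roles. Bcan, the proteoglycan brevican of nervous tissue, went from 3.90, 3.86 and 4.59 CPM to 61.2, 53.2 and 62.2 CPM, and rose by 3.83. It had at most a trace in control cells, with means of 0.0681 and 0.0575 CPM, and its change was higher than in Sox17 cells by 5.03 and than in SEG cells by 4.15, or 5.33 and 4.35 in the fit on 22 libraries. Fbxo2, a ubiquitin ligase part that binds glycoproteins, went from 0.734, 1.27 and 0.837 CPM to 24.3, 22.2 and 26.0 CPM. It rose by 3.61 in Sox17 cells as well, and the difference of 1.07 from Erg cells had an adjusted p of 0.189 in the fit on 24 libraries. In the fit on 22 libraries it was 1.88, with an adjusted p of 4.37e-06. Pcdh17, a protocadherin, rose by 4.86.

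Several leading falls were of genes that had stood far above control levels in Erg cells on day 3. Lipg, the endothelial lipase, stood at 254, 255 and 237 CPM on day 3 and at 27.2, 30.1 and 27.2 CPM on day 7, and fell by 3.14 (SE 0.17, adjusted p = 4.42e-11). Aldh1a3, which makes retinoic acid, went from 192, 187 and 185 CPM to 22.2, 21.2 and 20.9 CPM. Vgf, a secreted neuropeptide precursor, went from 453, 483 and 426 CPM to 60.2, 54.5 and 62.7 CPM. The spread within each day was small against the step between days in all 3 genes. Control day 3 means were 10.7 CPM for Lipg, 2.11 CPM for Aldh1a3 and 6.65 CPM for Vgf, so on day 7 these genes still stood above the control means of 5.43, 1.13 and 3.08 CPM. Slc2a3, a high-affinity glucose transporter, fell by 2.34, whereas Slc2a1, the common one, fell by 0.51.

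The change in Erg cells differed from that in control cells for 2916 genes (19.7%), from that in Sox17 cells for 2399 (16.2%) and from that in SEG cells for 2594 (17.5%). With both outlying libraries left out the shares were 43.9%, 41.3% and 43.3%. Vgf fell in Erg cells and rose by 1.40 in Sox17 cells, a difference of -4.34 (adjusted p = 3.06e-09) that was -4.10 in the fit on 22 libraries. Cd36, a fatty acid receptor of capillary endothelium and macrophages, rose by 1.40 in Erg cells and fell by 2.26 in SEG cells, a difference of 3.66 that was 3.75 in the fit on 22 libraries. Each of these differences contains the same 6 Erg libraries, so the 3 sets of differences are not independent of one another.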

How the data were processed

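RNA of 24 mouse libraries was extracted with an RNeasy kit and sequenced as mRNA by Novogene, per the labels' protocols. The authors deposited 1 table of counts per Ensembl gene identifier. Salmon, DESeq2 and the mm10 build are named in the submitters' processing notes, without versions or settings, and the counts are whole numbers, so any rounding of Salmon's estimates preceded deposit. All 35727 identifiers entered, 35422 matched a name, and 14804 passed filterByExpr (minimum count 10). Counts were scaled with TMM factors and tested with edgeR 4.0.16 (R 4.3.3; quasi-likelihood, 8 group means, no covariates, 2-sided, Benjamini-Hochberg over all genes tested, call at 0.05). Changes beyond 1.5-fold used glmTreat. CPM values use the TMM-scaled library sizes. SE values belong to the fitted log2 changes. Differences between conditions are interaction contrasts in the same fit. DESeq2 1.42.0 was an alternative, and the scripts were tested on simulated data.

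Named genes were the 15 largest rises and falls by log2 change (10 CPM or more in the higher group, no overlap of libraries), the 5 largest by CPM, the 6 largest differences either way in each interaction, up to 5 called members of each list role, and fixed genes of interest. The lists hold 635 genes, of which 579 were tested. Fbln2, Col4a1 and Slc2a3 came in by rank, and genes named for a missing call, a missing count or a lost call outside that rule were chosen after their values were seen. The comparison, gene lists and motifs were chosen with earlier results of these data known. Gene coordinates are those of GENCODE for mm10, and promoter sequences are RefSeq's for GRCm38.p6. No label ties a replicate number to a shared culture or animal, so no replicate block was used in the main fit. Deviations of same-numbered Erg libraries of the 2 days from their group means had correlations of -0.056, -0.0067 and 0.013. These correlations were -0.27, 0.061 and -0.31 in Sox17 cells and -0.051, -0.13 and 0.15 in SEG cells. Differently numbered pairs ran from -0.059 to 0.072 in Erg cells and from -0.27 to 0.33 in Sox17 cells. As the deviations are from means of 3 libraries, these values cannot show whether a replicate number marks a shared culture.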

Additional observations from a re-analysis of the deposited data

Results flagged for a closer look

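The change from day 3 to day 7 in Erg cells differed from that in control cells for 2916 genes, of which 355 were called in opposite directions in the 2 conditions (edgeR quasi-likelihood interaction test). Npffr1, a neuropeptide receptor, rose by 2.06 in Erg cells and fell by 3.85 in control cells, although its control means of 0.290 and 0.0189 CPM rest on few counts. Lrg1, an acute phase glycoprotein that acts on vessels, fell by 0.51 in Erg cells and rose by 4.23 in control cells; its fall was not called without Erg day 7 replicate 2, at -0.44. Igfbp5 fell by 3.41 in Erg and rose by 1.58 in control cells.

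Against Sox17 cells the change differed for 2399 genes, of which 325 were called in opposite directions. Ramp3, a subunit of adrenomedullin receptors, fell by 1.22 in Erg cells and rose by 4.35 in Sox17 cells. Flt4 fell by 0.99 in Erg and rose by 2.82 in Sox17 cells, and Nefm, a neurofilament gene, rose by 2.27 in Erg and fell by 2.37 in Sox17 cells. Without both outlying libraries these 3 differences from Sox17 cells were -4.80, -4.15 and 4.26, against -5.57, -3.80 and 4.65 with them.

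Against SEG cells the change differed for 2594 genes, of which 378 were called in opposite directions. Prom1, a membrane protein of progenitor cells, fell by 0.99 in Erg and rose by 3.30 in SEG cells. Cd36 rose by 1.40 in Erg and fell by 2.26 in SEG cells, and Igfbp3 rose by 2.34 in Erg and fell by 1.08 in SEG cells. The differences of Prom1 and Igfbp3 from SEG cells were -4.32 and 3.45 without both outlying libraries.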

How the results depend on the processing

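Counts are given as higher and lower, for the Erg days and then for the differences from control, Sox17 and SEG cells. With library totals alone, an alternative added after seeing the data, they were 4433 and 1046, 2873 and 833, 2166 and 831, and 2384 and 798. Tested beyond 1.5-fold they were 815 and 419, 416 and 398, 277 and 387, and 309 and 354. Fitted on only the groups compared they were 3516 and 3542 for the Erg days, 3114 and 3328 against control, and 586 and 770 against Sox17 cells. With both outlying day 7 libraries left out they were 4238 and 3924, 3287 and 3306, 3066 and 3123, and 3117 and 3373. Leaving out 1 library at a time gave 1834 to 2055 and 1604 to 1743 for the Erg days, 1112 to 1256 and 1182 to 1336 against control, 872 to 2414 and 1078 to 2390 against Sox17, and 972 to 1243 and 1080 to 1428 against SEG cells. The highest values against Sox17 cells were those without Sox17 day 7 replicate 1. The cause of these differences was not tested.

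With the replicate number as a block the counts were 2303 and 2097, 1340 and 1473, 1074 and 1251, and 1213 and 1315. Under the block Csf3r, Krt7, Nkd1 and Tgfb3 lost their calls and Vwf gained one.

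Of the 271 named genes called between the Erg days, 225 were called without each Erg library in turn. The log2 change of Tgfb3 reversed under library totals alone, at 0.053. With 3 libraries a group, no label for separate cultures, and few counts for genes such as Tie1, small changes of rare transcripts could not be resolved.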
